A study of Rattus norvegicus with 64 samples.

Results

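The genes described here are RNA-binding proteins that set neuronal splicing patterns and mRNA stability: the polypyrimidine tract binding proteins Ptbp1 and Ptbp2, the Rbfox family (Rbfox1, Rbfox2 and Rbfox3), the neuronal Hu family (Elavl2, Elavl3 and Elavl4), Nova1 and Srrm4. They were taken by gene symbol from a list of 10, and 9 of the 10 had counts among the 17260 genes of the expression tables. Srrm4, an activator of neuronal microexons, was not analysed here. The study measured total RNA from the entorhinal cortex of Long Evans rats, with no treatment named in the labels. Layer II (LII) and layers III to VI together (LDeep) were cut by hand from brain slices of the medial (MEC) and the lateral (LEC) entorhinal cortex on postnatal days 2, 9, 23 and 45 (P2, P9, P23 and P45). Each region and layer was represented by 5 samples on day 2, 4 on day 9, 3 on day 23 and 4 on day 45, for 64 samples in 16 groups. P2 and P9 together are called younger (n = 36) and P23 and P45 together older (n = 28). Each sample was a piece of tissue with all of its cell types, so for every result below, fewer cells of a type and less RNA per cell cannot be told apart.

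Ptbp1 is widespread in non-neuronal and progenitor cells, where it represses neuron-specific exons, among them one whose skipping sends Ptbp2 mRNA to decay. When Ptbp1 declines during neuronal differentiation, with the microRNA miR-124 as one known repressor, Ptbp2 takes over in young neurons and falls in turn as they mature. Rbfox proteins bind GCATG motifs and promote or repress exons according to where they bind, and Rbfox3 is the antigen of the neuronal marker NeuN. The neuronal Hu proteins bind U-rich and AU-rich sequences and stabilise mRNAs of growing neurons, whereas Nova1 binds YCAY clusters and regulates exons of synaptic proteins.

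Library depth ranged from 3894334 to 11439143 assigned reads, so that 1 read was worth 0.0874 to 0.257 CPM (counts scaled to library size). All 9 genes were counted well above this floor, from a median of 238 reads per sample for Nova1 (range 68 to 905) to 1630 for Rbfox1 (726 to 2961). In the build of the counts (Rn6) all 9 lie on the minus strand, Ptbp1 at chr7:12663965-12673723, Ptbp2 at chr2:223262895-223322542, Rbfox1 at chr10:8312961-8654892, Rbfox2 at chr7:118157094-118396728, Rbfox3 at chr10:107518744-107539465, Elavl2 at chr5:109499411-109625799, Elavl3 at chr8:23030252-23063015, Elavl4 at chr5:130003774-130085730 and Nova1 at chr6:66963510-67085390. The counts cover the exons of each gene, from 1128 bases for Rbfox3 to 4784 for Elavl2.

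The layer labels were checked against markers. The summed level of 12 meningeal fibroblast markers, genes of the membrane that lies on layer I, was 293 to 1780 CPM in 30 of the 32 LII libraries and 31.9 to 373 CPM in 31 of the 32 LDeep libraries. Exceptions were 3 MEC libraries at P2. The libraries labelled LII replicates 1 and 3 stood at 34.6 and 50.3 CPM, and the library labelled LDeep replicate 1 stood at 1160 CPM, so that for replicate 1 the meningeal marker levels went against both labels. The samples were kept as labelled. The comparisons that hold these libraries were also fitted without them, a choice made after the data were seen, except those between regions at a single age, and those values are given where a call or a direction changed. Layer II markers (4 of 5 listed had counts) summed to 731 to 2230 CPM in LII and 194 to 1630 CPM in LDeep, and 7 deep layer markers to 168 to 542 CPM in LII and 446 to 1140 CPM in LDeep. For MEC P2 replicate 1, layer II markers were at 756 CPM in LII and 911 CPM in LDeep, and deep layer markers at 362 and 446 CPM. MEC LII P2 replicate 3 had 1130 CPM of layer II and 418 CPM of deep layer markers.

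The first comparison asked how these regulators change over postnatal development. Of the 9 genes, 5 fell from P2/P9 to P23/P45 (Ptbp1, Ptbp2, Rbfox2, Elavl2 and Elavl3), 3 rose (Rbfox1, Rbfox3 and Nova1) and Elavl4 did not pass the test. The 5 that fell dropped to 0.548 to 0.642 of their younger level, whereas the rises were 1.22-fold to 1.47-fold. Development moved most of the transcriptome, since 41.0% of the 12521 genes tested were higher and 40.6% lower at the older ages, and a call by itself is therefore no particular feature of these 9 genes. Their median log2 fold change (LFC) was -0.64, against 0.01 over all genes tested. The age tests took the samples as independent, although several are assumed to come from each animal, so their p-values are too small to that extent. The calls other than that of Nova1 also held with counts summed per animal.

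**Figure D1:**
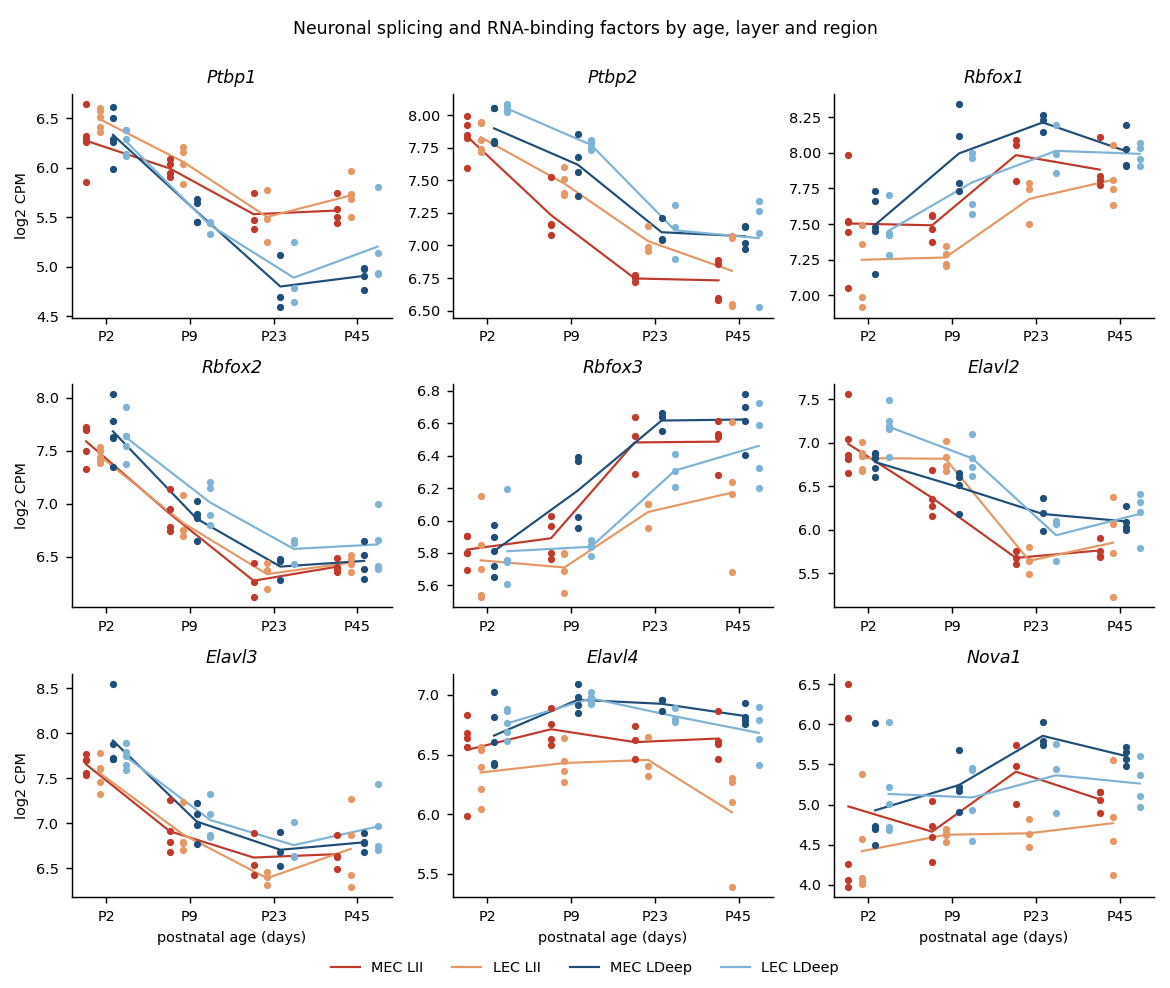
Level of each of the 9 genes in every sample, as log2 CPM, plotted by age. Points are single samples, colours mark the 4 combinations of region and layer, and lines join the group means. Ptbp1, Ptbp2, Rbfox2, Elavl2 and Elavl3 stepped down between P2 and P23, Rbfox1 and Rbfox3 stepped up, and Elavl4 stayed within 5.39 to 7.09.

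The PTB pair fell together. Ptbp1 had a lowest, median and highest level of 5.33, 6.15 and 6.64 log2 CPM in the younger samples and 4.59, 5.32 and 5.96 in the older samples. The LFC of Ptbp1 was -0.78 ± 0.0539 (SE; edgeR quasi-likelihood test, BH adjusted p = 2.74e-19), a 1.72-fold lower level. The 2 age groups of Ptbp1 did not overlap in either layer of MEC, while in LEC 1 older LII sample and 1 older LDeep sample lay inside the younger range. Ptbp2, the neuronal paralogue, stood at 7.08, 7.79 and 8.08 log2 CPM in the younger samples and 6.53, 7.004 and 7.34 in the older samples, with an LFC of -0.75 ± 0.0439 (adjusted p = 2.54e-22). Within each of the 4 combinations of region and layer, every older sample had less Ptbp2 than every younger sample. How many of all genes separate the ages in this way within a combination was not counted. Between 62.7% and 66.5% of all genes were called with age there, so such a separation may be common. When all 64 samples were pooled, none of the 9 genes separated the ages completely, while 3.6% of all genes did so upward and 3.82% downward.

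Within the Rbfox family the members moved in opposite directions. Rbfox2, which many non-neuronal cells also express, stood at 6.65, 7.36 and 8.04 log2 CPM (lowest, median and highest) in the younger samples and at 6.12, 6.43 and 7.001 in the older ones, an LFC of -0.81 ± 0.0448 (adjusted p = 2.46e-23). Rbfox1, expressed in neurons and muscle, went from 6.92, 7.49 and 8.34 log2 CPM to 7.50, 7.94 and 8.27, an LFC of 0.41 ± 0.0498 (adjusted p = 1.24e-10). Rbfox3 went from 5.53, 5.80 and 6.39 log2 CPM to 5.68, 6.46 and 6.78, with an LFC of 0.55 ± 0.0471 (adjusted p = 9.70e-16). Rbfox3 in the older samples lay above all younger samples in MEC LII, MEC LDeep and LEC LDeep, but 4 of the 7 older LEC LII samples lay inside the younger range. As for the PTB pair, the share of all genes separated in this way was not counted.

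These opposite courses changed the order of the Rbfox genes on a scale that corrects for length (CPM divided by the gene's exon length in kilobases, RPKM). That order depends on the annotated exon lengths, 1128 bases for Rbfox3, 1938 for Rbfox2 and 4153 for Rbfox1. In log2 CPM, without this correction, Rbfox1 had the highest median of the family in the younger (7.49) and older (7.94) samples. The ratio of Rbfox2 to Rbfox3 RPKM had a median of 2.05 at P2 (range 1.52 to 2.57), 1.18 at P9 (0.829 to 1.49), 0.588 at P23 (0.454 to 0.792) and 0.578 at P45 (0.441 to 0.981). At P2 all 20 samples therefore had more Rbfox2 than Rbfox3, and at P23 and P45 all 28 samples had less. The ratio of Rbfox1 to Rbfox2 RPKM went the other way, from a median of 0.407 at P2 (0.33 to 0.737) to 0.812 at P9 (0.508 to 1.27), 1.37 at P23 (1.15 to 1.8) and 1.32 at P45 (0.98 to 1.44). The ratio of Ptbp1 to Ptbp2 RPKM over both layers had medians of 0.213, 0.195, 0.178 and 0.226 at the 4 ages, with ranges that overlapped throughout. These ratios are described without a test of their own.

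**Figure D2:**
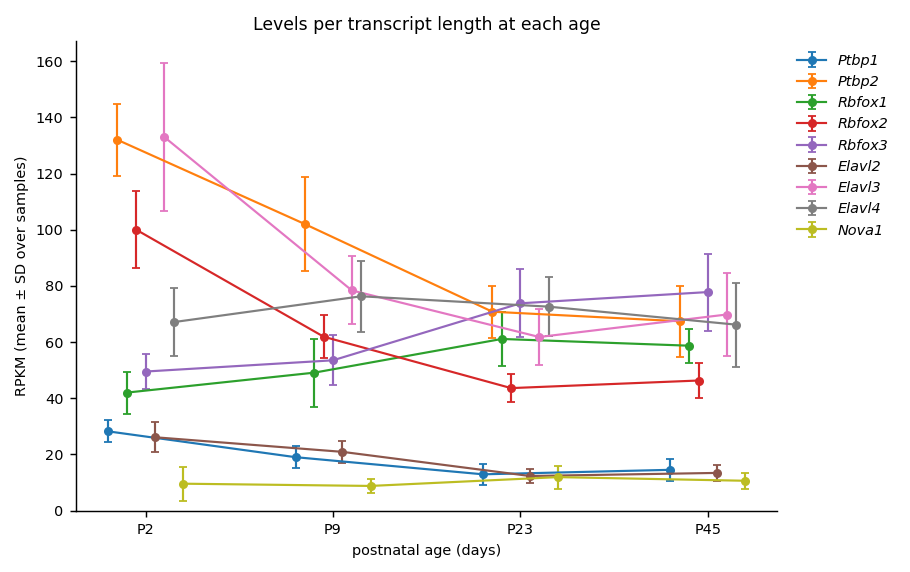
Mean RPKM of each gene at each age, with error bars of 1 SD over all samples of that age (n = 20, 16, 12 and 16). Rbfox2 stood below Elavl3 and Ptbp2 at P2 with 100.0 ± 13.7 RPKM and below Rbfox1 at P45 with 46.3 ± 6.19, while Rbfox3 moved from 49.5 ± 6.26 to the top of the order with 77.8 ± 13.7.

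Among the Hu genes, the 3 neuronal paralogues did not share a course. Elavl2 fell most, with an LFC of -0.87 ± 0.0593 (adjusted p = 1.74e-19), from 6.15, 6.82 and 7.56 log2 CPM (lowest, median and highest) in the younger samples to 5.23, 5.94 and 6.41 in the older ones. Elavl3 fell by 0.64 ± 0.061 on the log2 scale (adjusted p = 5.67e-14), from 6.68, 7.50 and 8.55 log2 CPM to 6.29, 6.68 and 7.43, and its age groups overlapped in all 4 combinations of region and layer. Elavl4 had nearly the same median in younger and older samples, 6.66 and 6.69 log2 CPM, and its LFC was -0.05 ± 0.0502 (adjusted p = 0.335; 95% interval -0.15 to 0.05). At P2 Elavl3 and Ptbp2 headed the order by RPKM, with 133 ± 26.5 and 132 ± 12.7 (SD, n = 20), and the 2 did not differ beyond their spread. At P45 the first 5 genes in the order (Rbfox3, Elavl3, Ptbp2, Elavl4 and Rbfox1) ran from 77.8 ± 13.7 to 58.7 ± 6.12 RPKM (n = 16), and no neighbours among them were apart by more than 1 SD each. Nova1 was lowest at every age, from 8.76 ± 2.57 RPKM at P9 to 11.9 ± 4.07 at P23, and at P23 and P45 it was not apart from Elavl2 by more than 1 SD each.

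Nova1 was the least certain of the calls. It stood at 3.98, 4.72 and 6.50 log2 CPM (lowest, median and highest) in the younger samples and at 4.13, 5.26 and 6.03 in the older ones, with an LFC of 0.29 ± 0.132 (adjusted p = 0.0424). Its 5 MEC LII samples at P2 read 6.50, 3.98, 6.08, 4.26 and 4.06 log2 CPM for replicates 1 to 5, and the high pair were the libraries labelled LII whose meningeal markers were low. Without the 3 libraries that stood apart, the LFC of Nova1 was 0.44 (adjusted p = 1.32e-04). With all libraries the call was lost in 11 of 16 fits that left out the libraries of 1 animal, where the LFC ran from 0.22 to 0.39 and the adjusted p up to 0.142. The call was also lost with counts summed per animal (0.29, adjusted p = 0.0793), without a filter on low counts (0.28, adjusted p = 0.0542), and in fits to the MEC samples (0.40, adjusted p = 0.0764) or the LEC samples (0.17, adjusted p = 0.326) on their own.

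No called gene changed direction when each region and layer was tested alone. From P2/P9 to P23/P45, 2 genes rose and 5 fell in MEC LII, in LEC LII and in LEC LDeep, where 66.5%, 62.7% and 64.5% of all genes were called, and 3 rose and 5 fell in MEC LDeep, where 66.2% were called. The additional gene in MEC LDeep was Nova1, with an LFC of 0.59 (adjusted p = 0.0410). Without the 3 libraries that stood apart Nova1 was also called in MEC LII, where its LFC went from 0.21 (adjusted p = 0.496) to 0.86 (adjusted p = 4.80e-04). The LFC of Ptbp1 was -0.59 in MEC LII, -1.10 in MEC LDeep, -0.66 in LEC LII and -0.77 in LEC LDeep. The age difference was also tested between the regions, and it did not differ significantly for any of the 9 genes (edgeR, 1 at an unadjusted p below 0.05, 0 by DESeq2 and by limma), while 4.38% of all genes were called.

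Most of the change fell before P23. From P2 to P9, 5 of the 9 genes fell (31.8% of all genes) and 2 rose (31.6%). From P9 to P23, 5 fell (32.1%) and 2 rose (32.5%), and from P23 to P45 none was called, against 1.99% of all genes called higher and 1.86% lower. In that last interval Ptbp1 alone had an unadjusted p below 0.05, with an LFC of 0.16 (adjusted p = 0.309), and DESeq2 and limma likewise called 0 of the 9. The steps before and after P9 are given side by side, without a test between them. Rbfox2 and Elavl3 had their larger step before P9, with an LFC of -0.69 and -0.76 from P2 to P9 and of -0.51 and -0.35 from P9 to P23. Elavl2 had its larger step afterwards, with -0.33 and then -0.77, and Ptbp1 fell by about as much in both intervals, with -0.59 and -0.57. Nova1 missed the threshold from P9 to P23 (0.41, adjusted p = 0.0633) and passed it without the 3 P2 libraries that stood apart (0.41, adjusted p = 0.0138) and in 4 of the 16 fits that left out 1 animal. Rbfox3 did not pass the test from P2 to P9 (LFC 0.10, adjusted p = 0.156) and rose from P9 to P23 (LFC 0.46, adjusted p = 1.22e-07). Fitted to the MEC samples on their own it was called from P2 to P9 (0.23, adjusted p = 0.0101), and in LEC it was at -0.05 (adjusted p = 0.732). Rbfox1 rose from P2 to P9 (LFC 0.20), a call lost in MEC alone (0.23, adjusted p = 0.0519) and in LEC alone (0.15, adjusted p = 0.156). Elavl4 rose from P2 to P9 (LFC 0.18, adjusted p = 0.0160), a call that was lost without P2 replicate 5 (0.13, adjusted p = 0.103) or without P9 replicate 3 (0.16, adjusted p = 0.0545). In LEC alone the P2 to P9 calls of Elavl4 (0.12, adjusted p = 0.304) and Elavl2 (-0.21, adjusted p = 0.134) were lost.

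The cell type markers moved over the same ages. The summed level of 7 immature neuron markers was 4450 to 13900 CPM in the younger and 633 to 1360 CPM in the older samples, and that of 10 dividing cell markers was 104 to 489 CPM and 22.5 to 42.2 CPM. Of the other lists, 8 astrocyte markers summed to 824 to 4710 CPM in the younger and 4080 to 7610 CPM in the older samples, 8 oligodendrocyte markers to 117 to 925 CPM and 866 to 17600 CPM, and 10 neuron markers to 5560 to 8280 CPM and 6340 to 10500 CPM. Tubb3 alone made up 52.7% of the neuron marker sum at P2. Taken singly, 7 of the 10 neuron markers were called higher and 2 lower at the older ages, with a median LFC of 0.98. Of all genes, 41.0% were called higher and 40.6% lower. No listed marker with counts was at 0 in all samples of an age group. The part of these shifts in the course of the splicing regulators was not tested.

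The proximal promoters of the genes that fell and of those that did not are shown side by side, because the genes that fell with age move together. RefSeq sequences of 250 bases before to 50 bases after the start (rat build GRCr8, 1 start per gene) matched 8 of the 10 listed genes, Srrm4 included, and Rbfox2 and Rbfox3 were not among them. The 7 promoters of genes with counts are printed. They lie on the minus strand, at chr7:10502908-10503207 (Ptbp1), chr2:210558228-210558527 (Ptbp2), chr5:111202238-111202537 (Elavl2), chr8:28858964-28859263 (Elavl3), chr10:8999342-8999641 (Rbfox1), chr5:130367614-130367913 (Elavl4) and chr6:69632388-69632687 (Nova1), and the capitals mark each CG dinucleotide, which reads the same on both strands.
Ptbp1: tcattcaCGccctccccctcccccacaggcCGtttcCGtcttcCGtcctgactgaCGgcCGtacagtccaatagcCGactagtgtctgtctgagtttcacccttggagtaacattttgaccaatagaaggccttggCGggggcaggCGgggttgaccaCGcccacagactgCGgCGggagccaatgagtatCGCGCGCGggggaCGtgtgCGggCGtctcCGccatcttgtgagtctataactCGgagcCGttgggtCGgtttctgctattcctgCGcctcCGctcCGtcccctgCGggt
Ptbp2: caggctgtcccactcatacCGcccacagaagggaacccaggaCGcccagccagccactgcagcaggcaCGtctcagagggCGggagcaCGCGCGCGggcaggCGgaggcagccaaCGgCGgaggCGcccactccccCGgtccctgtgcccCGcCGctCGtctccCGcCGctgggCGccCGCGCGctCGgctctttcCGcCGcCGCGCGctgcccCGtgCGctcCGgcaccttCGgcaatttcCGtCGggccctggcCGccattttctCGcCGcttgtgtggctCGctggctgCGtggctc
Elavl2: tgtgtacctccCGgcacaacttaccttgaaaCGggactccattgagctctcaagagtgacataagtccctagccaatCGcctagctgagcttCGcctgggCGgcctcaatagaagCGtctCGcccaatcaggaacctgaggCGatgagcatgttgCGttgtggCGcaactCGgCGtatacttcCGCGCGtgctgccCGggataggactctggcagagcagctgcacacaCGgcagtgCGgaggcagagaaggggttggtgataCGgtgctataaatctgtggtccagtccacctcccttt
Elavl3: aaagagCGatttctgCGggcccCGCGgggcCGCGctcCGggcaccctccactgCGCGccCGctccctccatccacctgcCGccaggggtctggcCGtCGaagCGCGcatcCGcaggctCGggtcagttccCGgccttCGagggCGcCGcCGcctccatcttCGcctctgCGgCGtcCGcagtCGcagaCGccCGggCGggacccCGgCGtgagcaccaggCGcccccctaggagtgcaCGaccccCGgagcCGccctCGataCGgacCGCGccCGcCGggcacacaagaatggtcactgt
Rbfox1: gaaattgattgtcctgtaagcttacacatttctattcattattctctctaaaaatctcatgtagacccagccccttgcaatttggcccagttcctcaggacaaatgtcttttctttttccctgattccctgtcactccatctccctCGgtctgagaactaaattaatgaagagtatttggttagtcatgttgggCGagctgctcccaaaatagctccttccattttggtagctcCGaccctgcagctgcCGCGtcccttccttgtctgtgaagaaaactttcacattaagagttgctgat
Elavl4: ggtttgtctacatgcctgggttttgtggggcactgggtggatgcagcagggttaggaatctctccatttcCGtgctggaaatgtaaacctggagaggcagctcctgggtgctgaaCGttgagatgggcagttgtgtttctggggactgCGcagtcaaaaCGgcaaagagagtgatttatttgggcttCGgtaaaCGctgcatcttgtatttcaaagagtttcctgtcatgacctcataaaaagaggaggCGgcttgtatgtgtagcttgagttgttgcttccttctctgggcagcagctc
Nova1: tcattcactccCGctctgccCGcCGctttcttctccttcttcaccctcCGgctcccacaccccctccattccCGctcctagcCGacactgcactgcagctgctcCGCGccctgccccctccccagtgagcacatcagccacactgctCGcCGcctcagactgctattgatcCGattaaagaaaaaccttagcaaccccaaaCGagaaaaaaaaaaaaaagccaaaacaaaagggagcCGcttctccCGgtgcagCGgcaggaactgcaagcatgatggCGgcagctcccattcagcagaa

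Of the matched genes that fell with age, Ptbp1 held 27 CG dinucleotides, Ptbp2 39, Elavl2 19 and Elavl3 42. Of those that did not fall, Rbfox1 held 5, Elavl4 7 and Nova1 16. The median over all 33469 promoters of this length was 7, and the share of promoters with at least as many CG was 13.9% for Ptbp1, 3.76% for Ptbp2, 25.7% for Elavl2, 2.4% for Elavl3, 62.0% for Rbfox1, 51.4% for Elavl4 and 30.5% for Nova1. With 7 genes this is a description of these windows, and it may not hold for other starts of the same gene.

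The second comparison was between the layers. Over both regions and all ages, 8 of the 9 genes were lower in LII than in LDeep and Ptbp1 alone was higher, against 30.5% of all genes lower and 23.5% higher in LII. The differences were small, from -0.13 to -0.44 on the log2 scale for the 8 genes and 0.47 for Ptbp1, with a median of -0.21 over the 9 genes and -0.05 over all genes.

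**Figure D3:**
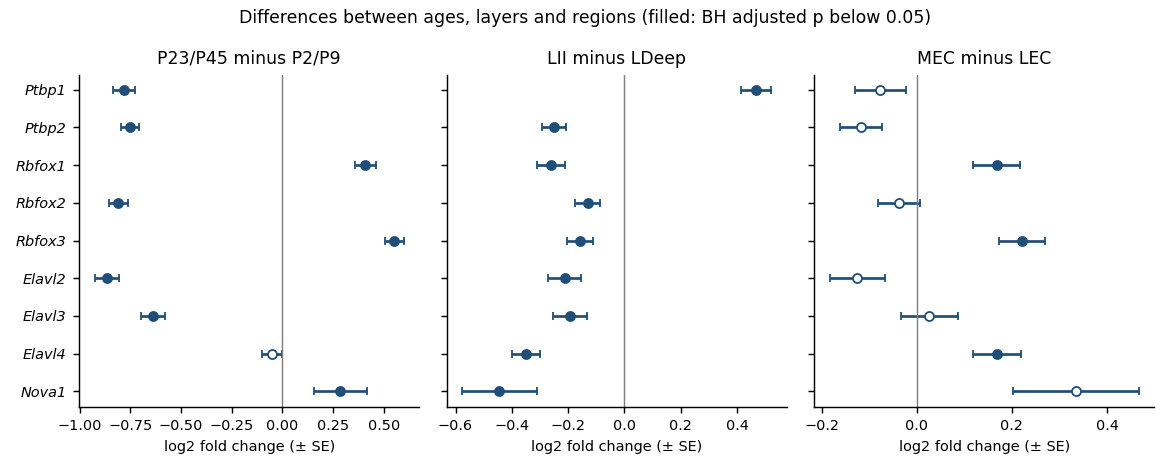
LFC of each gene, with error bars of 1 SE, for older minus younger, LII minus LDeep and MEC minus LEC. Filled symbols passed the BH adjusted threshold of 0.05. Ptbp1 was the only gene above 0 in the layer comparison, at 0.47, and the age differences reached -0.87.

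Ptbp1 had a lowest, median and highest level of 5.25, 5.92 and 6.64 log2 CPM over the 32 LII samples and 4.59, 5.45 and 6.62 over the 32 LDeep samples. Its LFC was 0.47 ± 0.0532 (adjusted p = 8.65e-11), 1.38-fold higher in LII. In 29 of 32 pairs of LII and LDeep samples with the same region, age and replicate number, Ptbp1 was higher in LII, in 14 of 16 pairs in MEC and 15 of 16 in LEC. The difference was 0.48 without the 3 libraries that stood apart (adjusted p = 1.33e-11). Markers of the membranes and vessels were also higher in LII: without these 3 libraries the 12 meningeal fibroblast markers had a median summed level of 1125 CPM in LII and 134 CPM in LDeep, and 8 endothelial and mural cell markers of 472.5 CPM (323 to 610) and 271 CPM (159 to 355). The 8 astrocyte markers had medians of 4120 and 2070 CPM, and the 10 neuron markers of 7125 and 8070 CPM. Over all libraries, 8 of 10 dividing cell markers were called higher in LII and none lower (summed level 24.0 to 489 CPM, median 164, in LII and 22.5 to 411 CPM, median 121, in LDeep), as were 6 of 8 microglia markers (65.6 to 513 CPM and 89.2 to 422 CPM). Other lists leaned lower in LII over all libraries. Of 7 immature neuron markers 5 were called lower and none higher (median summed level 4820 CPM in LII and 6180 CPM in LDeep). Of 8 oligodendrocyte markers 4 were lower and 1 higher (medians 190 and 257 CPM over all ages), and of the 10 neuron markers 4 were lower and 1 higher. By age, the oligodendrocyte medians in LII and LDeep were 151 and 144 CPM at P2 and 173 and 226 at P9. They were 2890 and 10200 CPM at P23 and 2850 and 5890 at P45. The part of these marker shifts in the layer difference of Ptbp1 and of the 8 genes that were lower was not tested.

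**Figure D4:**
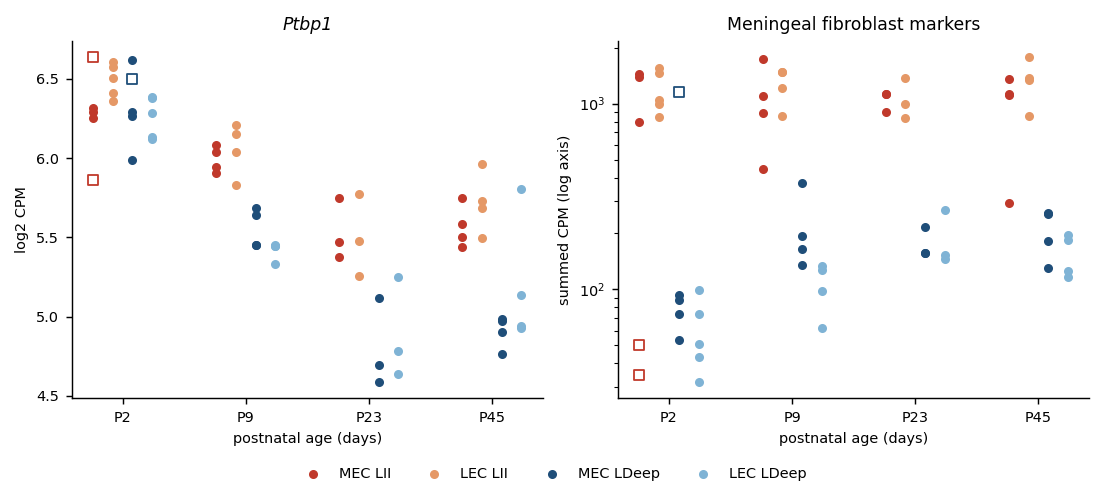
Left, Ptbp1 in log2 CPM in every sample by age and layer. Right, the summed level of 12 meningeal fibroblast markers in CPM on a log axis. Open squares are the 3 MEC P2 libraries that stood apart, at 34.6, 50.3 and 1160 CPM. At P9 all LII samples had more Ptbp1 than all LDeep samples, while at P2 the layers overlapped.

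The remaining 8 genes were shifted the other way. Elavl4 was lower in LII in 27 of 32 pairs (LFC -0.35 ± 0.0503, adjusted p = 4.51e-08), with a median of 6.55 log2 CPM in LII (5.39 to 6.89) and 6.86 in LDeep (6.41 to 7.09). Rbfox1 was lower in LII in 28 of 32 pairs (LFC -0.26 ± 0.05, adjusted p = 1.47e-05), as was Ptbp2 (-0.25 ± 0.0433, adjusted p = 2.28e-06). The ranges of all 3 overlapped between the layers when ages were pooled. Nova1 was also lower in LII in 28 of 32 pairs, with an LFC of -0.44 ± 0.132 (adjusted p = 0.00387) that became -0.61 (adjusted p = 1.42e-06) without the 3 libraries. Elavl2 (-0.21, 23 of 32 pairs), Elavl3 (-0.19, 23 pairs), Rbfox3 (-0.16, 26 pairs) and Rbfox2 (-0.13, 24 pairs) had the smallest differences. With limma voom and quantile normalisation, the calls of Rbfox2 (-0.05, adjusted p = 0.300) and Elavl3 (-0.11, adjusted p = 0.0675) were lost, and that of Rbfox2 also without P23 replicate 2 (-0.11, adjusted p = 0.0673) and when 10 reads were required in every sample (-0.09, adjusted p = 0.114).

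Because Ptbp1 was higher and Ptbp2 lower in LII, the ratio of the 2 was higher there as well. The ratio of Ptbp1 to Ptbp2 RPKM had a median of 0.256 in LII (0.143 to 0.417) and 0.145 in LDeep (0.0979 to 0.381). In LII the median was 0.225 at P2 (0.143 to 0.323), 0.267 at P9 (0.196 to 0.315), 0.248 at P23 (0.188 to 0.32) and 0.285 at P45 (0.212 to 0.417). In LDeep it was 0.19 at P2 (0.149 to 0.28), 0.126 at P9 (0.117 to 0.193), 0.133 at P23 (0.0979 to 0.168) and 0.138 at P45 (0.124 to 0.381). The ranges of the layers overlapped at P2 and P45 and not at P9 and P23, and no test was run on the ratio or on its course in either layer.

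The layer difference was then followed over the ages. Ptbp1 did not differ between LII and LDeep at P2 beyond the spread of the samples, with an LFC of 0.09 ± 0.0915 (adjusted p = 0.542; 95% interval -0.09 to 0.27) and of 0.11 ± 0.0962 without the 3 libraries that stood apart (adjusted p = 0.404; 95% interval -0.07 to 0.30). In the 5 pairs of LEC at P2 it was higher in LII in 5, by 0.03 to 0.48 (median 0.19), and in the 5 pairs of MEC, which hold these libraries, in 3, with differences of -0.43 to 0.27 (median 0.05). At P2 it ranged from 5.86 to 6.64 log2 CPM in LII (median 6.38, n = 10) and from 5.99 to 6.62 in LDeep (median 6.29, n = 10). At P9 the layers no longer overlapped, with 5.83 to 6.21 in LII (median 6.04, n = 8) and 5.33 to 5.69 in LDeep (median 5.45, n = 8), an LFC of 0.54 ± 0.104 (adjusted p = 4.35e-05). The share of all genes whose layers do not overlap at a single age was not counted. At P23 LII ran from 5.254 to 5.776 and LDeep from 4.590 to 5.248 log2 CPM (n = 6 each; LFC 0.67 ± 0.123, adjusted p = 2.85e-05). At P45 LII ran from 5.44 to 5.96 and LDeep from 4.77 to 5.81 (n = 8 each; LFC 0.58 ± 0.106, adjusted p = 2.25e-05), and the highest LDeep sample was LEC replicate 4, whose layer II markers were also the highest in LDeep at 1630 CPM.

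**Figure D5:**
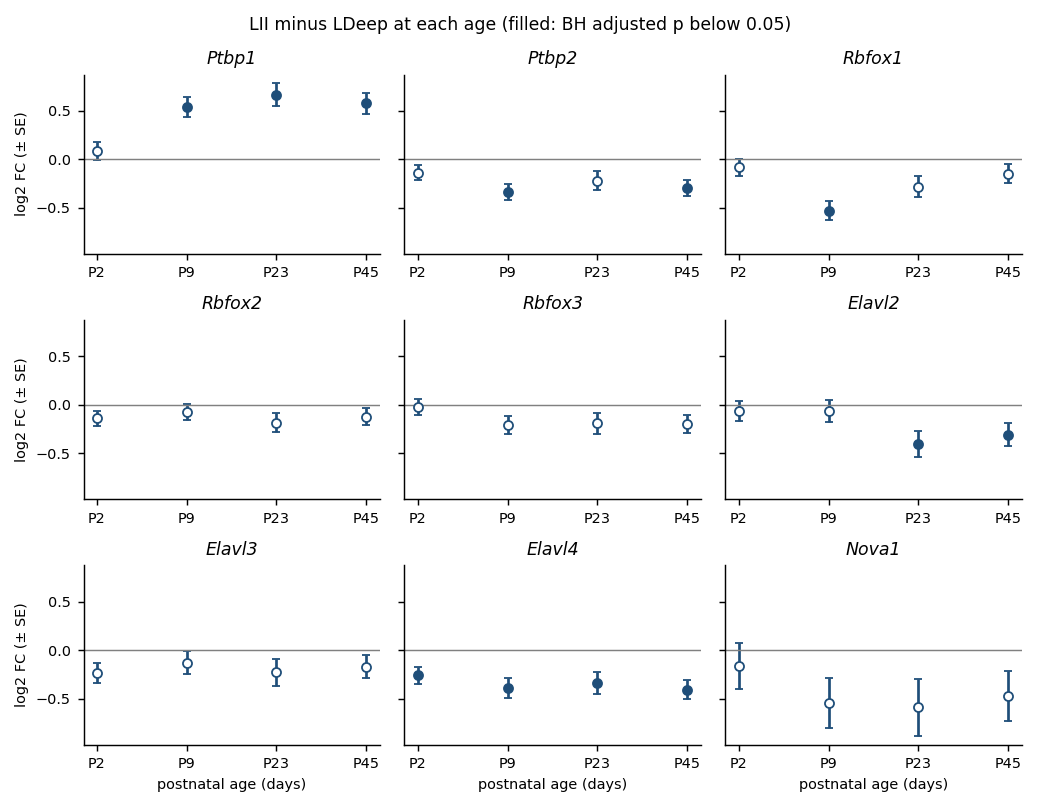
LFC of LII minus LDeep at each age for the 9 genes, with error bars of 1 SE. Filled symbols passed the BH adjusted threshold of 0.05. Ptbp1 went from 0.09 at P2 to between 0.54 and 0.67 at the later ages, and Elavl4 was filled at all 4 ages, from -0.26 to -0.41.

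With all libraries, Elavl4 was the only gene called between layers at every age, with an LFC of -0.26, -0.39, -0.34 and -0.41 from the youngest to the oldest. Without the 3 libraries that stood apart its call at P2 was lost (-0.20, adjusted p = 0.0973), and Nova1 was called at P2 instead, its LFC going from -0.16 (adjusted p = 0.674) to -0.86 (adjusted p = 8.90e-04). In all, 1 of the 9 genes was called at P2 (19.2% of all genes), 4 at P9 (33.0%), 3 at P23 (25.9%) and 4 at P45 (26.4%). Rbfox1 was called only at P9, where it ran from 7.203 to 7.566 log2 CPM in LII and from 7.568 to 8.340 in LDeep (LFC -0.53 ± 0.0986, adjusted p = 2.58e-05), with values of -0.08, -0.28 and -0.15 at P2, P23 and P45. Ptbp2 was called at P9 (-0.34) and P45 (-0.30), and Elavl2 at P23 (-0.41) and P45 (-0.31). P23 had the fewest samples, 6 in each layer.

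Whether these layer differences changed with age was tested directly. The difference of the older minus younger LFC between LII and LDeep was 0.31 ± 0.106 for Ptbp1 (adjusted p = 0.0582), and 0 of the 9 genes were called by edgeR, against 8.8% of all genes. At an unadjusted p below 0.05 there were 2, Ptbp1 and Elavl2 (-0.29, adjusted p = 0.113), and limma called 1, Elavl2 (-0.36, adjusted p = 0.0440), and DESeq2 0. With the animal as a block the value for Ptbp1 was 0.32 (adjusted p = 0.0320), without the 3 libraries that stood apart 0.30 (adjusted p = 0.0479), and without P2 replicate 1, P2 replicate 2 or P45 replicate 4 it was 0.33, 0.34 and 0.33 (adjusted p = 0.0376, 0.0409 and 0.0206). In the other 13 of 16 fits that left out 1 animal Ptbp1 was not called, and over the 16 its value ran from 0.20 to 0.34 and the adjusted p up to 0.334. Fitted to the MEC samples on their own it was 0.50 (adjusted p = 0.0413) and to the LEC samples 0.05 (adjusted p = 0.936), and of 9 other alternatives, these included, 6 made no call. Elavl2 passed without P45 replicate 4 (-0.45, adjusted p = 0.00399) and without P2 replicate 5 (-0.38, adjusted p = 0.0392), with values of -0.45 to -0.25 over the 16 fits. The change from P2 to P9 was set between the layers in the same way, a contrast added after the data were seen. In LII minus LDeep it was 0.45 ± 0.138 for Ptbp1 (adjusted p = 0.0664) and -0.45 ± 0.132 for Rbfox1 (adjusted p = 0.0532), and 0 of the 9 genes were called by edgeR against 2.16% of all genes. These 2 were also the only ones at an unadjusted p below 0.05. Both passed with DESeq2 (adjusted p = 0.0394 and 0.0420), and Ptbp1 also with the animal as a block (adjusted p = 0.0442).

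The layer pattern was also compared between regions. Taken as contrasts within the fit of all 64 samples, in MEC 4 of the 9 genes were called between LII and LDeep (40.8% of all genes), Ptbp1 higher (0.44) and Ptbp2 (-0.29), Rbfox1 (-0.21) and Elavl4 (-0.22) lower in LII. Without the 3 libraries that stood apart 6 were called in MEC (44.3% of all genes), with Elavl2 (-0.21, adjusted p = 0.0281) and Nova1 (-0.64, adjusted p = 3.54e-04, from -0.29 with all libraries) in addition. In LEC all 9 were called (38.6% of all genes), with Ptbp1 at 0.49, Elavl4 at -0.48 and Nova1 at -0.60. Fitted to the LEC samples on their own, the calls of Rbfox3 (-0.16, adjusted p = 0.101) and Elavl3 (-0.22, adjusted p = 0.0534) were lost. The difference between the regions itself was called for none of the 9 genes by edgeR (1.25% of all genes), with Elavl4 at 0.27 ± 0.10 (adjusted p = 0.211) the single one at an unadjusted p below 0.05, and 0 were called by DESeq2 and by limma.

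The third comparison was between MEC and LEC, and here the differences were smallest. Rbfox3, Rbfox1 and Elavl4 were higher in MEC and none was lower, against 8.87% of all genes higher and 6.53% lower. Rbfox3 had a median of 6.16 log2 CPM over the 32 MEC samples (5.65 to 6.78) and 5.87 over the 32 LEC samples (5.53 to 6.73), and it was higher in MEC in 25 of 32 pairs (LFC 0.22 ± 0.0473, adjusted p = 4.38e-04). Rbfox1 was higher in MEC in 24 of 32 pairs (LFC 0.17 ± 0.05, adjusted p = 0.0139) and Elavl4 in 22 of 32 pairs (LFC 0.17 ± 0.0502, adjusted p = 0.0141). All 3 ranges overlapped between the regions. The call of Rbfox1 was lost without P9 replicate 2 (0.14, adjusted p = 0.0744), P23 replicate 1 (0.16, adjusted p = 0.0562) or P23 replicate 2 (0.16, adjusted p = 0.0576), and that of Elavl4 without P23 replicate 1 (0.16, adjusted p = 0.0540). Nova1 missed the threshold (0.33 ± 0.132, adjusted p = 0.0784) and passed it without P2 replicate 3 (0.39, adjusted p = 0.0226), but without the 3 libraries that stood apart it was at 0.18 (adjusted p = 0.260). At single ages, none of the 9 genes was called between regions at P2. At P9 1 was lower in MEC, Elavl2 (-0.39 ± 0.114, adjusted p = 0.0369). At P23 and at P45 1 was higher in MEC. The share of all genes called is not given for these single ages, so whether these counts exceed it is not known. Cell type markers moved with region as well. Of 8 oligodendrocyte markers 4 were higher in MEC (summed level 117 to 17600 CPM in MEC and 134 to 7600 CPM in LEC), 3 of 7 immature neuron markers were lower (633 to 13300 and 682 to 13900 CPM) and 2 of 8 microglia markers were lower (65.6 to 448 and 99.3 to 513 CPM). Their part in the region differences was not tested.

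In LII alone the same 3 genes were higher in MEC, Elavl4 by 0.30 ± 0.0714, Rbfox3 by 0.24 ± 0.0672 and Rbfox1 by 0.22 ± 0.0708 on the log2 scale, with 12.6% of all genes called in either direction. In LDeep none of the 9 genes was called by edgeR (5.78% of all genes), with Rbfox3 the single one at an unadjusted p below 0.05 (0.20 ± 0.0666, adjusted p = 0.0583), and it was called without the 3 libraries that stood apart (0.21, adjusted p = 0.0411). The 3 calls in LII held without these libraries. Ptbp2 was close to the threshold over both layers, lower in MEC by 0.12 ± 0.0432 on the log2 scale (-0.12, adjusted p = 0.0562), and it passed with the animal as a block (adjusted p = 0.0408), with DESeq2 (adjusted p = 0.0327) and with limma voom (adjusted p = 0.0310).

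The wider families of RNA-binding proteins were listed beside these genes. All 13 SR proteins, splicing activators with serine and arginine rich tails, fell from P2/P9 to P23/P45, with a median LFC of -0.74, led by Srsf2 (-0.97) and Srsf6 (-0.91). Of 23 hnRNP proteins tested, the family to which the PTB proteins also belong, 20 fell and 1 rose, with a median of -0.54. Hnrnpa1 (-1.52) and Hnrnpab (-1.24) fell most and Hnrnph2 (0.58) rose. Of 5 close relatives of the 9 genes, 4 fell and none rose, with Ptbp3 at -0.43 and Elavl1, the widely expressed Hu gene, at -0.41. Of all genes, 40.6% fell and 41.0% rose, with a median of 0.01.

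Of 16 other tissue-restricted splicing regulators tested, 4 rose and 5 fell, both smaller shares than the 41.0% and 40.6% of all genes. The muscleblind genes Mbnl2 (LFC 2.10, from a mean of 5.85 ± 0.678 to 8.04 ± 0.207 log2 CPM, SD) and Mbnl1 (0.75) rose, and Celf6 (-1.29) and Khdrbs2 (-0.79) fell. The rise of Mbnl2 was larger than any change among the 9 genes, whose LFC lay between -0.87 and 0.55. Of 16 proteins of mRNA transport, stability and translation, 4 rose and 10 fell (41.0% and 40.6% of all genes), among them Cpeb1 (2.39), a cytoplasmic polyadenylation factor, Fxr2 (0.25), and the oncofetal Igf2bp1 (-4.28) and Igf2bp2 (-3.17), which were low in the older samples.

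Between the layers, more genes of these families were lower in LII than higher, except among the close relatives. The member of each family with the largest difference in each direction was, among the close relatives, Ptbp3 (0.57) and Srrm3 (-0.26), so Ptbp3, another PTB gene, was higher in LII like Ptbp1. Among the SR proteins it was Srsf9 (0.24) and Srsf12 (-0.27), and among the hnRNP proteins Raver2 (0.50), a partner of PTB, and Hnrnpab (-0.36). Among the other splicing regulators it was Rbm47 (1.24) and Khdrbs2 (-0.68), and among the transport and stability proteins Igf2bp1 (1.84) and Igf2bp2 (-0.26). Rbm47 and Igf2bp1 were at low levels, where an LFC is uncertain (SE 0.20 and 0.42). Their mean log2 CPM was 0.79 in LII and -0.14 in LDeep for Rbm47, and 0.11 and -0.41 for Igf2bp1. The number called lower in LII was 6 of 13 SR proteins and 11 of 23 hnRNP proteins, with 1 and 2 higher. Of 16 other splicing regulators 7 were lower and 2 higher. Of 16 transport and stability proteins 8 were lower and 1 higher, and of 5 close relatives 1 was lower and 1 higher. Of all genes, 30.5% were lower and 23.5% higher.

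Genes that the literature ties to these regulators were also read. Gap43, a growth-cone gene whose mRNA Elavl4 binds, fell with age (LFC -1.70), and Dlg4, whose product PSD-95 appears once the PTB proteins decline, rose (0.56). Rest, the repressor of neuronal genes, missed the threshold with age (-0.16, adjusted p = 0.0535) and was higher in LII (LFC 0.63, adjusted p = 8.70e-10), as Ptbp1 was. Mir124-2, a gene of miR-124, fell with age (-1.31) and was lower in LII (-0.51), but it had only 0 to 57 reads per sample, and gene counts of total RNA do not measure the mature microRNA. Mir124-1 fell too (-0.58), with 1 to 29 reads per sample.

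The genes whose 16 group means followed each regulator most closely were found by the smallest root mean square (RMS) difference between centred log2 CPM profiles, over 11896 genes and 16 groups that share the same libraries. For Ptbp1 these included Trip6 (0.097) and Zfp496 (0.152), against a median RMS difference of 0.622 over all genes. For Ptbp2 they were Amz2 (0.0688), Rbmxrtl (0.0819) and Ilf2 (0.0821), for Rbfox2 Zfp354c (0.0741), Ddx39b (0.0759) and Sf3b3 (0.076), and for Elavl3 Camsap1 (0.0771), Clip2 (0.0772) and Mcf2l (0.0916). The nearest profiles were less close for Elavl2, with Hdgfrp3 (0.128), Tbc1d24 (0.13) and Xpo1 (0.14), and for Nova1, with Dixdc1 (0.158), Ptpdc1 (0.165) and Spsb1 (0.178). Rbfox1, Rbfox3 and Elavl4 were left out because their group means spanned less than 1 on the log2 scale.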

How the data were processed

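Total RNA was measured in 64 samples of rat entorhinal cortex (16 groups). Libraries were strand-specific and depleted of ribosomal RNA. The deposited values are raw read counts per RefSeq gene. Per the labels and the study's methods the authors trimmed reads with Trimmomatic (0.33) after bcl2fastq (1.8.4), aligned them to rn6 with STAR (2.4.0) and made these counts with featureCounts of Subread (1.4.6-p1), versions being those of the submitters' processing notes. How reads shared by several genes were counted is not given in the sources used here, but no exon of the 9 genes overlaps an exon of another annotated gene.

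From the counts, CPM (TMM library sizes, prior count 2 for log2 CPM) and RPKM (with the exon lengths deposited beside the counts) were computed. The quasi-likelihood test of edgeR (4.0.16, R 4.3.3) was fitted with 16 group means to all 12521 genes that passed filterByExpr, and p-values were adjusted over all of them by the Benjamini-Hochberg (BH) method, with a threshold of 0.05. SEs were derived from the F statistic, and 95% intervals are normal approximations on the log2 scale. Alternatives were limma voom (3.58.1), DESeq2 (1.42.0), RLE size factors, other filters, an animal block, counts summed per animal, each region alone, each animal left out, and a prior count of 0.5. The study's own fit was limma voom on MEC, and edgeR was used here because the values are counts.

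Groups came from the sample titles. Nothing in the labels names the animals. That samples with the same number at an age came from 1 animal was assumed for both layers and both regions, which gives 16 animals. The study describes such sharing for the MEC samples of its microRNA arrays. Same-numbered samples deviated together weakly (mean r of 0.126 to 0.143 over 32 pairs of each kind, against -0.045 to -0.039 over 100 pairs with different numbers). The 4 samples of an animal are not independent in the age comparisons, and p-values measure only the spread between these samples. No replicate pair of 100 held identical values, and all differed by more than counting noise. The median pair had a chi-square of 12.1 per degree of freedom. Pairs with LEC LDeep P45 replicate 4 stood at 59.1 to 73.6. Those with MEC LDeep P2 replicate 4 stood at 45.9 to 67.4, and with MEC LII P2 replicate 1 at 45.9 to 63.1. Both replicate 4 libraries were left out only together with their whole animal.

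The 10 genes and all other lists were chosen with earlier results of these data known. From each other list of RNA-binding and linked genes, the text names 2 genes per direction with the largest absolute LFC among those called (mean of at least 1 CPM) with age and 1 per direction between layers, and for likeness the 3 nearest genes of each regulator whose group means span at least 1. For Ptbp1, 1 of these is not reported here. Elavl2 in the age by layer test, Mir124-1 and Rest with age, and Rbfox1 in the added contrast were named after their values were seen. The 3 P2 libraries that stood apart were left out in an added alternative, which was also run for the contrasts within single regions, layers and ages that hold them. Elavl2 between regions at P9 was named after its value was seen.

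On simulated counts for 12281 genes the test recovered 93.3% of genes changed by 0.5 on the log2 scale between the ages, 95.7% between layers and 91.4% between regions, and 100% of those changed by 1. Genes not changed in a comparison gave 6 false calls between ages, 8 between layers and 19 between regions. Between regions 85 of 93 and 107 of 107 changed genes were recovered. Simulated samples were independent and only well-counted genes were changed, so samples sharing an animal were not covered. Counting error is the only error that the reads per sample describe. Nova2, Qki, Hnrnpa0, Hnrnpd, Hnrnpll, Hnrnpul2, Pcbp1, Cpeb2, Cpeb3, Igf2bp3, Lin28b and Msi2 were on the lists and, like Srrm4, not analysed here.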

Additional observations from a re-analysis of the deposited data

Results flagged for a closer look

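In 108 tests of 9 genes in the 12 groups of 4 or 5 samples, 6 single samples met Dixon's criterion for a value apart from its group. Chance meets this criterion in about 1 of 20 groups, so 6 of 108 is close to the chance rate. Ptbp1 in LEC LDeep at P9 was lowest in replicate 3, at 5.334 log2 CPM, with the next sample at 5.446. Rbfox2 in LEC LII at P9 was highest in replicate 4, at 7.081 against 6.749. Rbfox3 in LEC LDeep at P2 was highest in replicate 2, at 6.192 against 5.755. Elavl3 was highest in replicate 4 both of MEC LDeep at P2, at 8.55 against 7.882, and of LEC LII at P9, at 7.232 against 6.786. Nova1 in MEC LDeep at P2 was highest in replicate 4, at 6.012 against 4.733. The MEC LDeep P2 replicate 4 and LEC LII P9 replicate 4 libraries each appear for a pair of genes, and none of these libraries is among the 3 with unlike meningeal markers.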

How the results depend on the processing

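Of the LFC of the 9 genes in 9 contrasts, and of Ptbp1 and Rbfox1 in the added contrast of P2 to P9 by layer, recomputed under every alternative, 1955 kept their direction and their side of the threshold, 35 lost and 36 gained a call and 27 changed sign, all of the last for values that were not called. The age calls of the 7 genes other than Nova1 and Elavl4 held under every alternative run, and the animal block changed no call of the 9 genes besides those given above. Within small differences the cause of a sign change was not tested.

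In a fit to the MEC samples alone, 5 of the 9 genes were called between layers in place of 9, 1 in place of 0 for the age by layer difference (434 in place of 1102 over all genes), and the LFC was 0.0198 for Elavl4 with age, -0.0017 for Elavl2 from P23 to P45, and 0.0134 for Rbfox3 and 0.0974 for Elavl3 in age by layer. In a fit to the LEC samples alone, 4 genes in place of 7 were called from P2 to P9, 493 genes in age by layer, and the LFC was -0.0467 for Rbfox3 from P2 to P9, 0.0513 for Rbfox1 and 0.0394 for Nova1 from P23 to P45, and 0.0161 for Ptbp2 in age by layer. From P2 to P9 Nova1 was at 0.0356 with limma voom, at 0.0427 with the replicate block and at 0.19 without the 3 libraries that stood apart, in place of -0.12. Without these libraries Nova1 was also at 0.18 in age by layer and -0.0573 in layer by region.

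The number of the 9 genes called was otherwise 1 in age by layer with limma voom, with the replicate block and without the 3 libraries, and 1 with the block and 2 with DESeq2 in the added contrast of P2 to P9 by layer. Over all genes, 482 called from P23 to P45 became 248 with the replicate block, 60 with counts summed per animal, 76 in MEC, 224 in LEC and 731 without the 3 libraries. The 6767 called between layers became 4353 with 10 reads required in every sample, since fewer genes were tested. Layer by region went from 156 to 286 with the block and 241 without the 3 libraries, and P2 to P9 by layer from 271 to 416 with the block.

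Over the 16 fits that each left out 1 animal, the genes called ran from 1 to 5 between regions, 0 to 2 in age by layer and 0 to 2 in P2 to P9 by layer. Over all genes they ran from 283 to 629 from P23 to P45, 302 to 666 in age by region, 63 to 218 in layer by region and 115 to 377 in P2 to P9 by layer. The LFC ran from -0.2265 to 0.0875 for Nova1 from P2 to P9, -0.0065 to 0.0531 for Elavl3 between regions, -0.0137 to 0.1193 for Rbfox1 in age by layer, -0.0976 to 0.0247 for Rbfox1 and -0.0065 to 0.0884 for Ptbp2 in age by region, and, in layer by region, -0.0068 to 0.11 for Elavl2, -0.0052 to 0.14 for Elavl3 and -0.0168 to 0.0728 for Rbfox3. Depth limits Nova1 most, with as few as 68 reads in a sample.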
